A study of Mus musculus with 15 samples.

Results

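The receptors described here are 7 genes through which peptides released by nerves or vessels, and serotonin, act on cells: Ednrb, Ramp1, Ramp3, Calcrl, Htr7, Vipr1 and Tacr1. They were chosen by name, with their values in these libraries known, from the 42454 entries of the expression table, so their levels and differences are a description and carry no p-value. All 7 are listed in the table. A mean of at least 100 normalized counts over the 15 libraries was required for the test across genes, and 5 of the 7 passed it. Ramp1 was the lowest of the 5 that passed and Vipr1, at a mean of 43.3, was the highest of the 2 that did not; Tacr1 averaged 0.328.

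Macrophages were sorted from the ear skin of mice that carried creERT2, a Cre recombinase that tamoxifen activates, on one Cx3cr1 allele and gfp on the other, with a tdTomato reporter at R26 that Cre switches on (the genotype field spells the locus Cxcr1). The animals received tamoxifen and 3 weeks later a punch through the left ear, and both ears were collected after a further 10 days, the right ear being the uninjured side. The sorted cells carried CD11b and CD64, markers of macrophages, and lacked lineage markers. RNA-seq was done on 15 libraries in 5 groups of 3, and the series' title concerns the part of sensory neurons and TGF-β in macrophage identity.

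Nerve-associated macrophages recruited after the punch (recNAM) were gated as GFP-positive, Tomato-negative cells of the punched ear. Resident nerve-associated macrophages were gated as GFP-positive, Tomato-positive cells of the punched ear (injNAM) or of the unpunched ear (sNAM). Interstitial macrophages were gated as GFP-negative, Tomato-negative cells of the punched ear (injIM) or of the unpunched ear (IM). All 5 groups shared the reporter alleles and the tamoxifen. GFP and the inducible Cre follow Cx3cr1 in any cell that expresses it, so the gates rest on that gene and not on the position of a cell beside a nerve. The groups were taken from the library titles, because the reporter tag of the labels follows the ear and contradicts the gates for injIM and sNAM. All libraries came from 3 mice, and the labels do not tie a library to a mouse, so the groups share animals and p-values measure only the spread between these libraries.

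Ednrb encodes the type B endothelin receptor, which binds all endothelins, peptides known best for their action on vessels and on cells of the neural crest lineage. Calcrl encodes a receptor that reaches the cell surface only with a RAMP protein: with the Ramp1 product it binds calcitonin gene-related peptide (CGRP), a peptide of sensory nerve endings, and with the Ramp2 or Ramp3 product it binds adrenomedullin. Htr7 encodes a serotonin receptor, Vipr1 a receptor for vasoactive intestinal peptide (VIP) and PACAP, and Tacr1 the receptor for substance P. The Calcrl, Htr7 and Vipr1 receptors act mainly through the G protein Gs, which raises cyclic AMP, and the Ednrb and Tacr1 receptors mainly through Gq and calcium, Ednrb also through Gi. In skin, sensory nerve endings release CGRP and substance P, and macrophages are known to respond to CGRP.

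The promoters of the 4 members whose levels set the nerve-associated and interstitial libraries apart most are printed 5′ to 3′ on the gene's strand, from 250 bases before to 50 after the RefSeq start site (GRCm38.p6). Capitals mark matches, on either strand, to the cyclic AMP response element half-site TGACG, the PU.1 core GAGGAA and the SMAD-binding element CAGAC. The windows lie at chr14:103843652-103843951 on the minus strand for Ednrb, chr1:91179572-91179871 on the plus strand for Ramp1, chr11:6658283-6658582 on the plus strand for Ramp3, and chr19:36057311-36057610 on the minus strand for Htr7.
Ednrb: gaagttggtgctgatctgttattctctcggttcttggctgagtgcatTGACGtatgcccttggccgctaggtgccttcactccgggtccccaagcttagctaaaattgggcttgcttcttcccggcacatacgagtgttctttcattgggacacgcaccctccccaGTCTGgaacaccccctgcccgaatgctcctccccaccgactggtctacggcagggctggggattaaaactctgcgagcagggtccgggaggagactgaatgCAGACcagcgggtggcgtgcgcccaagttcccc
Ramp1: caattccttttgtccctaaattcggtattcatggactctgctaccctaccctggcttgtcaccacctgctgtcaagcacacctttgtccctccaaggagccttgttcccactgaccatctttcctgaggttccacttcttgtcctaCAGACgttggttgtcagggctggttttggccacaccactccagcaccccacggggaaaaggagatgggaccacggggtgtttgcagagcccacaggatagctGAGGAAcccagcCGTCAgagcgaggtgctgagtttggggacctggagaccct
Ramp3: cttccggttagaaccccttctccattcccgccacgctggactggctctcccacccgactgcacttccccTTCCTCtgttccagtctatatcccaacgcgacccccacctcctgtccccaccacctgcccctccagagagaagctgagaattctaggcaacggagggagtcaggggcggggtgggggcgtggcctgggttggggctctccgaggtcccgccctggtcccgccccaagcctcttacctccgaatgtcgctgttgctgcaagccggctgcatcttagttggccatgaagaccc
Htr7: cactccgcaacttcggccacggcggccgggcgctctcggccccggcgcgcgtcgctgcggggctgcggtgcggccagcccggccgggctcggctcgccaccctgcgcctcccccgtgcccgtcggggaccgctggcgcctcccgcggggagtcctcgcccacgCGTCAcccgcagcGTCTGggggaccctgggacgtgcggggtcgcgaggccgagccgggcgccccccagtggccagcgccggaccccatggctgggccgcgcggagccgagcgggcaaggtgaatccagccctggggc
Of these 4 windows, TGACG was found in those of Ednrb, Ramp1 and Htr7 and is held by 20.8% of 32851 RefSeq promoters of that length. GAGGAA was found in those of Ramp1 and Ramp3 and is held by 28.3% of the promoters, and CAGAC was found in those of Ednrb, Ramp1 and Htr7 and is held by 49.6%. Ramp3 had neither TGACG nor CAGAC in its window. The full cyclic AMP response element TGACGTCA, held by 1.79% of the promoters, and the AP-1 site TGANTCA, held by 7.81%, were in none of the 7 members' windows. TGACG is contained in TGACGTCA, and the reverse of TGACG can share bases with CAGAC, as it did in the windows of Tacr1 and Vipr1, which are not printed. Such a match is a run of letters and does not show that a factor binds there, and a window without one does not show that none does.

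Before the members are taken in turn, the libraries differ in ways that bear on them. Recovered depth, in M reads (1 M being 1000000), was 20.4 to 23.4 in recNAM, 16.9 to 19.5 in injNAM, 5.64 to 18.6 in sNAM, 20.4 to 21.9 in injIM and 20.6 to 23.8 in IM. Replicates correlated at r = 0.934 to 0.955 in recNAM, 0.762 to 0.772 in injNAM, 0.644 to 0.776 in sNAM, 0.966 to 0.983 in injIM and 0.972 to 0.982 in IM (log2 scale, across genes). In sNAM replicate 2, the shallowest library, 25.8% of the tested genes had no read, against 11.6% and 3.89% in the other 2 sNAM libraries, 4.26 to 8.79% in injNAM, and 0.139 to 0.751% in recNAM, injIM and IM. Libraries were made from 250 pg of RNA with 13 PCR cycles and no molecular identifiers, so an absent read can be an RNA molecule that was not captured, and values below are given for each library. Normalized counts are reads after the authors' division by a single factor for each library. In these libraries fewer cells of a kind and less RNA per cell cannot be told apart.

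**Figure D1:**
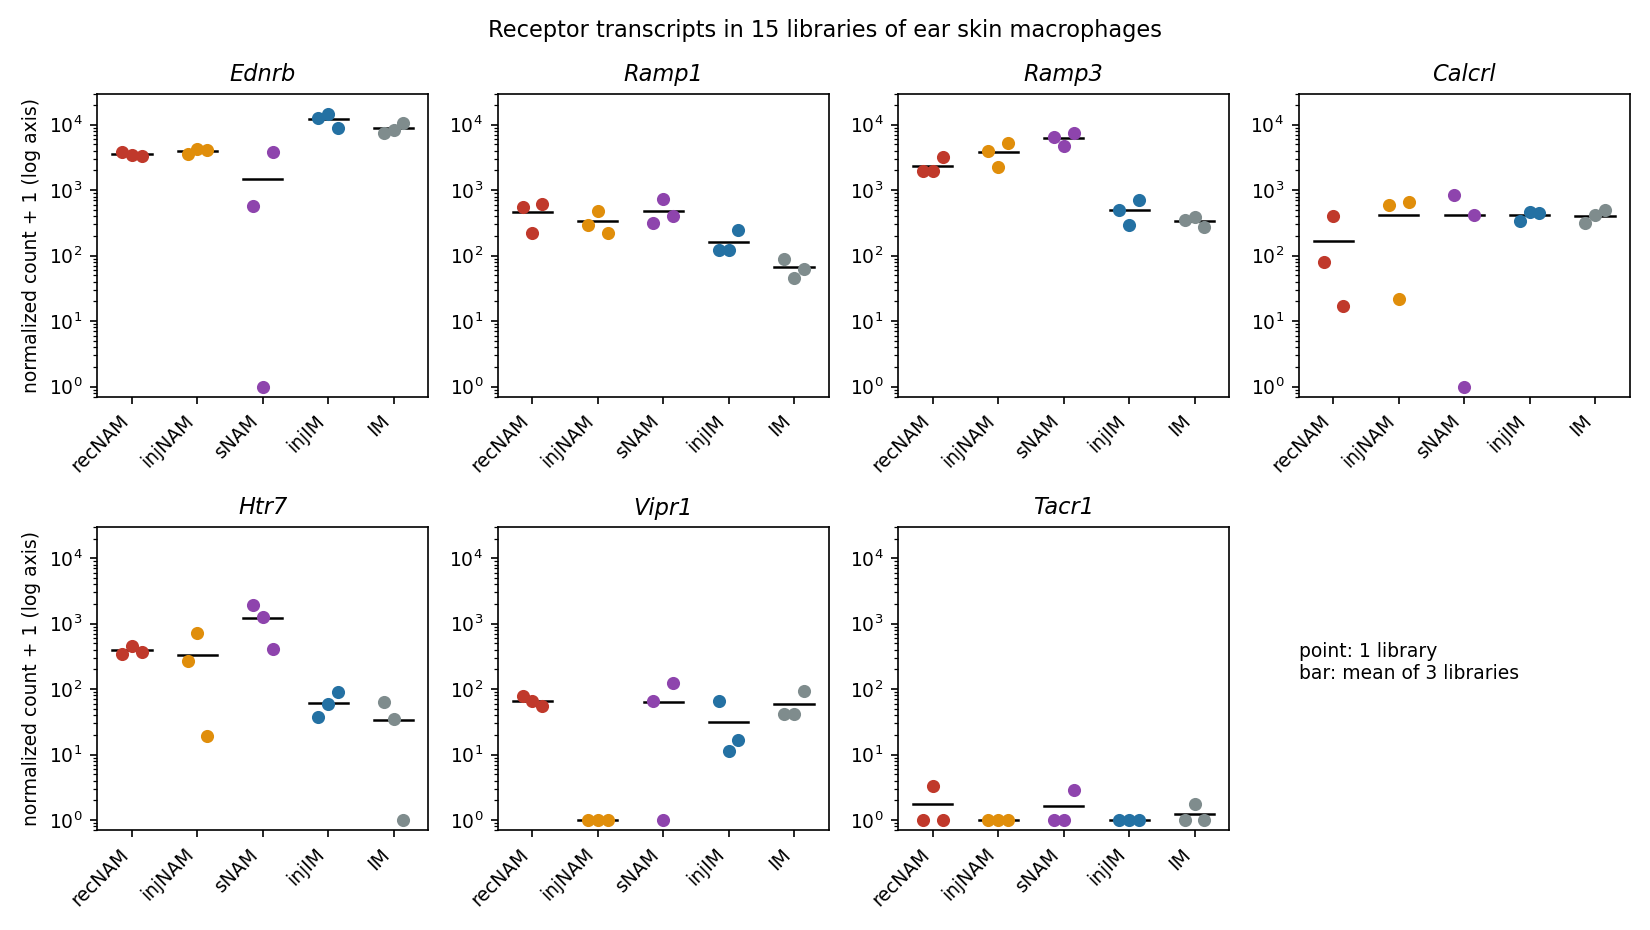
Normalized counts of the 7 receptor genes (log axis) in each of the 15 libraries, grouped as recNAM, injNAM, sNAM, injIM and IM; points are single libraries, bars are group means and 1 was added to each value. Ednrb is lower, and Ramp3 higher, in every nerve-associated library than in any interstitial one. Calcrl varies more between nerve-associated than between interstitial libraries, and across the tested genes replicates also correlated less in the nerve-associated groups.

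Ednrb was an abundant transcript of interstitial macrophages and was lower in every nerve-associated library. It lies on chromosome 14, 103814625 to 103844402, minus strand (GRCm38). Its values were 3882, 3427 and 3289 normalized counts in recNAM, 3530, 4205 and 4153 in injNAM, 570.4, 0 and 3837 in sNAM, 12746, 14764 and 8829 in injIM, and 7384, 8435 and 10645 in IM (replicates 1, 2 and 3). The 9 nerve-associated libraries ran up to 4205 and the 6 interstitial libraries from 7384, with no overlap. Of the 8656 genes tested, 1.46% were likewise lower in every nerve-associated library than in every interstitial one, and 0.901% were higher.

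For the unpunched ear, Ednrb averaged 1469 ± 2071 normalized counts in sNAM and 8821 ± 1665 in IM (SD, n = 3 each), 6-fold lower in sNAM. The fitted difference was -3.78 ± 0.71 (SE) on the log2(value + 100) scale, the scale of every fitted difference below. The 3 sNAM libraries did not repeat each other: replicate 2 had no read, which at its depth allows up to 8.73 normalized counts, replicate 1 had 592 reads and replicate 3 had 2074. Of the 314 genes with an IM mean at least that of Ednrb, Ednrb itself, by definition the lowest of them in IM, was the 1 gene without a read in that library. Of the 3042 genes with an IM mean of 1000 or more, 172 (5.65%) had no read there. Without sNAM replicate 2 the difference was -2.44, and without sNAM replicate 3 it was -5.09.

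For the punched ear the nerve-associated libraries were close to each other. Ednrb averaged 3533 ± 310.5 in recNAM and 12113 ± 3018 in injIM, 3.43-fold lower in recNAM, with a fitted difference of -1.72 ± 0.28. It averaged 3963 ± 375 in injNAM, 3.06-fold lower than in injIM, with a fitted difference of -1.56 ± 0.54. The recNAM and injNAM ranges overlapped, with a fitted difference of -0.16 ± 0.57.

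The punch itself went with smaller and overlapping differences in Ednrb. The injIM mean was 1.37-fold the IM mean and the fitted difference was 0.44 ± 0.22; the lowest injIM library, 8829, lay inside the IM range. The injNAM mean was 2.7-fold the sNAM mean, and the highest sNAM library, 3837, lay above the lowest injNAM library, 3530. Ordered by mean, Ednrb was highest in injIM, then IM, injNAM, recNAM and sNAM, and of these neighbours only IM and injNAM had ranges that did not overlap.

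Markers of other skin cell types were summed beside Ednrb. The summed level of 9 Schwann cell and melanocyte markers (among them Sox10, Mbp, Dct, Tyr, Mlana and Pmel) was 12 to 14.8 CPM (reads per M reads of the library) in recNAM, 10.5 to 16.3 in injNAM, 3.19 to 31.2 in sNAM, 8.1 to 13.2 in injIM and 6.05 to 11.8 in IM, where Ednrb itself averaged 500 ± 90.2 CPM. Mbp had the highest mean of these 9 markers in every group, at 192 ± 6.45 normalized counts in recNAM and 106 ± 21.4 in IM. Sox10 was at 0 in every nerve-associated library and averaged 2.59 ± 4.49 in IM. Pmel averaged 21.6 ± 17.9 in recNAM and 29.5 ± 26.1 in IM. The 10 blood endothelial markers summed to 18 to 38.2 CPM in recNAM, 1.02 to 13.6 in injNAM, 15.6 to 55.9 in sNAM, 17.7 to 27 in injIM and 12.4 to 35.3 in IM. In all 3 libraries, 5 of the 9 Schwann cell and melanocyte markers were at 0 in recNAM, 6 in injNAM, 4 in sNAM, 2 in injIM and 1 in IM, and of the 10 endothelial markers 3 were at 0 in recNAM, 6 in injNAM, 6 in sNAM, 2 in injIM and 1 in IM. Endothelial markers went both ways: Cdh5 was at 0 in all sNAM libraries and averaged 27.5 ± 4.09 normalized counts in IM, while Vwf averaged 317 ± 512 in sNAM and 83.6 ± 8.81 in IM, Flt1 217 ± 348 in sNAM and 72.8 ± 49.7 in IM, and Pecam1 101 ± 98.5 in sNAM and 26.7 ± 21 in IM. The 6 fibroblast markers (Dcn, Col1a1, Col1a2, Col3a1, Pdgfra and Lum) had a lower mean sum in each nerve-associated group than in either interstitial group. The sum was 44.4 to 263 CPM in recNAM, 0.355 to 38.8 in injNAM and 6.28 to 52.5 in sNAM. It was 275 to 1046 in injIM and 254 to 438 in IM. The recNAM and IM ranges overlapped. Within injIM the sum was highest in replicate 3, the injIM library with the lowest Ednrb value. Pdgfra was at 0 in all 3 injNAM libraries and Lum in all 3 sNAM libraries. The part of these cell types in the Ednrb values was not tested. The genes whose levels followed Ednrb most closely over the 15 libraries were Klhl21 (r = 0.963, Spearman's rho = 0.879), Serpinb8 (r = 0.96, rho = 0.861) and Slc35f5 (r = 0.959, rho = 0.871); the libraries share groups and depth, so these are descriptions.

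Ramp3 showed the opposite distribution, high in all nerve-associated libraries and low in all interstitial ones. It lies on chromosome 11, 6658521 to 6677475, plus strand. Its values were 1968, 1948 and 3191 normalized counts in recNAM, 3943, 2235 and 5303 in injNAM, 6494, 4748 and 7399 in sNAM, 497.7, 296.2 and 697.8 in injIM, and 349.6, 393.8 and 271.4 in IM. The lowest of the 9 nerve-associated libraries, 1948, was above the highest of the 6 interstitial ones, 697.8.

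The separation was widest in the unpunched ear. Ramp3 averaged 6214 ± 1348 in sNAM and 338 ± 62 in IM, 18.4-fold higher in sNAM, with a fitted difference of 3.84 ± 0.64. In the punched ear it averaged 3827 ± 1538 in injNAM and 497 ± 201 in injIM, 7.7-fold higher in injNAM, with a fitted difference of 2.69 ± 0.49. Recruited cells averaged 2369 ± 712, 4.76-fold the injIM mean, with a fitted difference of 2.07 ± 0.25. All 3 sNAM libraries, including the shallow replicate 2, lay within 4748 to 7399, so Ramp3 did not share the scatter of Ednrb there.

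Across nerve-associated groups, Ramp3 means were ordered sNAM, injNAM and recNAM, but neighbours in that order overlapped. The fitted difference was -0.74 ± 0.78 for injNAM against sNAM and -0.62 ± 0.51 for recNAM against injNAM. For injIM against IM it was 0.40 ± 0.20, with overlapping ranges. A pseudogene on the other strand, Gm11978, overlaps 1713 bases of the Ramp3 locus, and its highest value in any library was 5.46 normalized counts, so it held few of the reads counted there.

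The genes closest to Ramp3 in level over the 15 libraries were Plbd1 (r = 0.953, rho = 0.957), Cd74, which encodes the MHC class II chaperone (r = 0.95, rho = 0.946), and Rin3 (r = 0.944, rho = 0.896). The summed level of 9 dendritic cell markers was 377 to 560.5 CPM in recNAM, 431 to 993 in injNAM, 1655 to 3099 in sNAM, 104 to 263 in injIM and 267 to 632 in IM. Without Ccr7, the sum was 118 to 193 CPM in recNAM, 166 to 625 in injNAM and 584 to 1016 in sNAM. It was 88.9 to 244 in injIM and 251 to 605 in IM. The markers in it went both ways. Cd209a averaged 5360 ± 2392 normalized counts in sNAM and 7112 ± 3337 in IM, and the Xcr1 mean was also lower in sNAM. Flt3 averaged 2347 ± 958 in sNAM and 22.6 ± 10.9 in IM. The Ccr7, Zbtb46, Fscn1, Ccl22, Ccl17 and Clec9a means were also higher in sNAM than in IM. In recNAM against injIM, the Cd209a, Xcr1 and Clec9a means were lower and the means of the other markers were higher. Clec9a, a marker of one dendritic cell subset, was at 0 in all injNAM libraries and the other 8 markers were not at 0 throughout any group. The part of such cells in the Ramp3 values was not tested.

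Ramp1 was a low transcript that was higher in nerve-associated macrophages. It was also higher in every injIM library than in every IM library, as were 13.5% of the tested genes, while 11.4% were lower. No other member was without overlap in that comparison. Ramp1 lies on chromosome 1, 91179822 to 91225196, plus strand. Its values were 558.3, 224.6 and 623.7 normalized counts in recNAM, 294.8, 481.4 and 224.4 in injNAM, 311.2, 724.8 and 399.7 in sNAM, 121.6, 119 and 242.2 in injIM, and 87.8, 45.3 and 62.2 in IM. Ramp1 was higher in every sNAM library than in every IM library, as were 9.57% of the tested genes. In the punched ear, injIM replicate 3, at 242.2, was above recNAM replicate 2 and injNAM replicate 3.

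Ramp1 averaged 479 ± 218 in sNAM and 65.1 ± 21.4 in IM, 7.35-fold higher in sNAM, with a fitted difference of 1.75 ± 0.71, which was 2.65 with 10 in place of 100 added to each value. It averaged 161 ± 70.4 in injIM, 2.47-fold the IM mean, with a fitted difference of 0.64 ± 0.22. It averaged 469 ± 214 in recNAM, 2.91-fold the injIM mean, and 334 ± 133 in injNAM, 2.07-fold the injIM mean, with fitted differences of 1.07 ± 0.28 and 0.72 ± 0.54 and overlapping ranges. The means of sNAM, recNAM and injNAM differed by less than their pooled spread. The closest genes in level were Gngt2 (r = 0.92, rho = 0.921), Maf1 (r = 0.902, rho = 0.889) and Cd52 (r = 0.892, rho = 0.85).

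Calcrl, the receptor that the RAMP proteins bring to the surface, was present at like means in 4 of the 5 groups, and its spread differed between populations. It lies on chromosome 2, 84330626 to 84425411, minus strand. Its values were 80.2, 399.3 and 16.1 normalized counts in recNAM, 588.8, 20.6 and 662.8 in injNAM, 855.5, 0 and 414.5 in sNAM, 334.3, 470.2 and 446.4 in injIM, and 309.1, 417.9 and 497.9 in IM. The 6 interstitial libraries lay within 309.1 to 497.9, and the 9 nerve-associated libraries ran from 0 to 855.5. Wider spread was not particular to Calcrl. Across the tested genes, replicates correlated at r = 0.644 to 0.776 in sNAM, 0.762 to 0.772 in injNAM and 0.934 to 0.955 in recNAM. In injIM and IM they correlated at 0.966 or more.

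Calcrl means were 165 ± 205 in recNAM, 424 ± 351 in injNAM, 423 ± 428 in sNAM, 417 ± 72.6 in injIM and 408 ± 94.8 in IM, and every pair of groups compared overlapped. The fitted difference was -1.23 ± 0.38 for recNAM against injIM and -0.46 ± 0.98 for sNAM against IM. The first stayed below 0 under all 13 alternative settings, at -2.10 to -0.78. The second was 0.48 without sNAM replicate 2, the library with no Calcrl read. Sampling of few molecules and real variation between libraries cannot be told apart for Calcrl here. The closest genes in level were Mfsd4a (r = 0.852, rho = 0.844), Rragc (r = 0.847, rho = 0.625) and Cry2 (r = 0.845, rho = 0.8).

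Set per kilobase of exon, so that levels of different genes can be compared, Ramp3 was the most abundant RAMP in every library. Ramp3 averaged 1716 ± 516 normalized counts per kilobase in recNAM, 2773 ± 1114 in injNAM, 4503 ± 977 in sNAM, 360 ± 145 in injIM and 245 ± 44.9 in IM. Ramp1 averaged 155 ± 70.8 per kilobase in recNAM, 110 ± 44 in injNAM, 158 ± 72.1 in sNAM, 53.2 ± 23.3 in injIM and 21.5 ± 7.09 in IM. Calcrl averaged 33.8 ± 42 per kilobase in recNAM, 86.9 ± 72 in injNAM, 86.7 ± 87.6 in sNAM, 85.4 ± 14.9 in injIM and 83.6 ± 19.4 in IM.

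Ramp3 made up 88.5 to 95% of the per-kilobase sum of Ramp1 and Ramp3 in recNAM, 91 to 98.1% in injNAM, 93.5 to 97.9% in sNAM, 84.5 to 90% in injIM and 89.7 to 95% in IM. The share overlapped between sNAM and IM and between recNAM and injIM, while every injNAM library was above every injIM library. Ramp2 was at 0 in all 9 nerve-associated libraries, 5.86 ± 8.77 normalized counts in injIM and 22.2 ± 11.1 in IM. RNA levels do not give the number of receptor pairs at the surface.

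**Figure D2:**
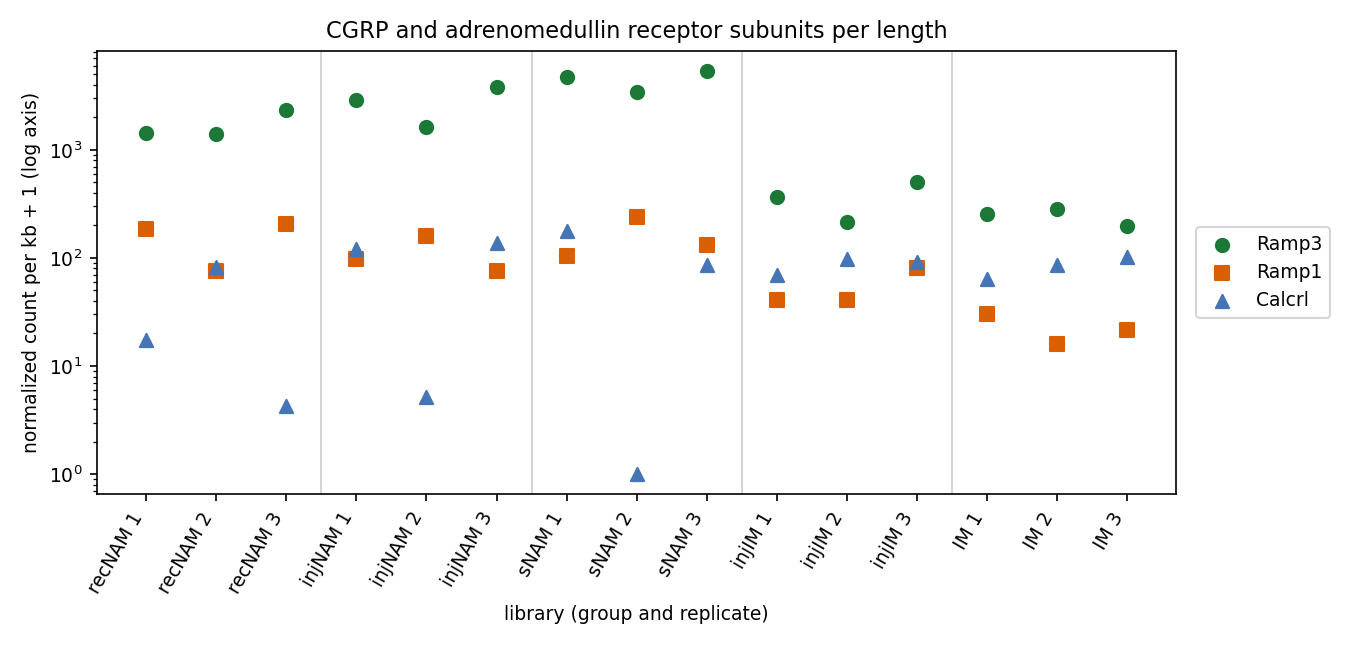
Normalized counts per kilobase of exon (log axis) of Ramp1, Ramp3 and Calcrl for each of the 15 libraries, in the order recNAM, injNAM, sNAM, injIM and IM; points are single libraries and 1 was added to each value. Ramp3 averages 4503 per kilobase in sNAM and 245 in IM, while Calcrl averages 86.7 in sNAM and 83.6 in IM.

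Htr7 was detected at a low level in interstitial macrophages, with no read in IM replicate 3. Its mean was highest in resident nerve-associated macrophages of the unpunched ear. It lies on chromosome 19, 35958734 to 36057507, minus strand. Its values were 344.1, 452.4 and 374.5 normalized counts in recNAM, 272.8, 709.9 and 18 in injNAM, 1946, 1249 and 405.2 in sNAM, 37, 58.3 and 88.8 in injIM, and 63.3, 34.3 and 0 in IM. Htr7 was higher in every sNAM library than in every IM library, as were 9.57% of the tested genes. It was also higher in every recNAM library than in every injIM library, as were 11.4%. In contrast, injNAM replicate 3, at 18, was below every injIM library.

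Htr7 averaged 1200.1 ± 772 in sNAM and 32.6 ± 31.7 in IM, 36.9-fold higher in sNAM, with a fitted difference of 3.10 ± 0.72, which was 4.98 with 10 in place of 100 added to each value. It averaged 390.4 ± 55.8 in recNAM and 61.4 ± 26.1 in injIM, 6.36-fold higher in recNAM, with a fitted difference of 1.61 ± 0.28, and 2.54 with 10 added. It averaged 334 ± 350 in injNAM, 5.44-fold the injIM mean with overlapping ranges and a fitted difference of 1.04 ± 0.56; that difference was 0.39 without injNAM replicate 2 and 1.78 without injNAM replicate 3. For injNAM against sNAM the fitted difference was -1.76 ± 0.88 and the ranges overlapped. The closest genes in level were Clk2 (r = 0.914, rho = 0.886), Jak2 (r = 0.901, rho = 0.836) and Prr5l (r = 0.9, rho = 0.814).

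The VIP receptor gene Vipr1 was detected at a low level in 11 of the 15 libraries and in none of the injNAM libraries. It lies on chromosome 9, 121642716 to 121672954, plus strand. Its values were 77.9, 65.5 and 54.2 normalized counts in recNAM, 0, 0 and 0 in injNAM, 64.6, 0 and 122.1 in sNAM, 64.9, 10.5 and 15.9 in injIM, and 40.5, 40.2 and 92.5 in IM. Recruited cells had the most even values. A floor of 3 reads per library is a mean of 2.72 normalized counts in injNAM. The Vipr1 mean was 24.2-fold that floor in recNAM and 11.2-fold in injIM. The floor covers the sampling of reads and not molecules that were never captured, so these folds are not lower bounds of a difference. Of the 9185 genes with a recNAM mean at least that of Vipr1, 113 (1.23%) had no read in any injNAM library. Vipr1 is by definition the lowest of these genes in recNAM, so that share does not describe genes of its own level.

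The substance P receptor gene Tacr1 (chromosome 6, 82402334 to 82560104, plus strand) was at the limit of detection. It had 3 reads in recNAM replicate 2, 1 read in sNAM replicate 3, 1 read in IM replicate 2, and none in the other 12 libraries. No order of groups can be read from these 5 reads, and a level under the floor of 3 reads per library was not detectable at this depth.

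**Figure D3:**
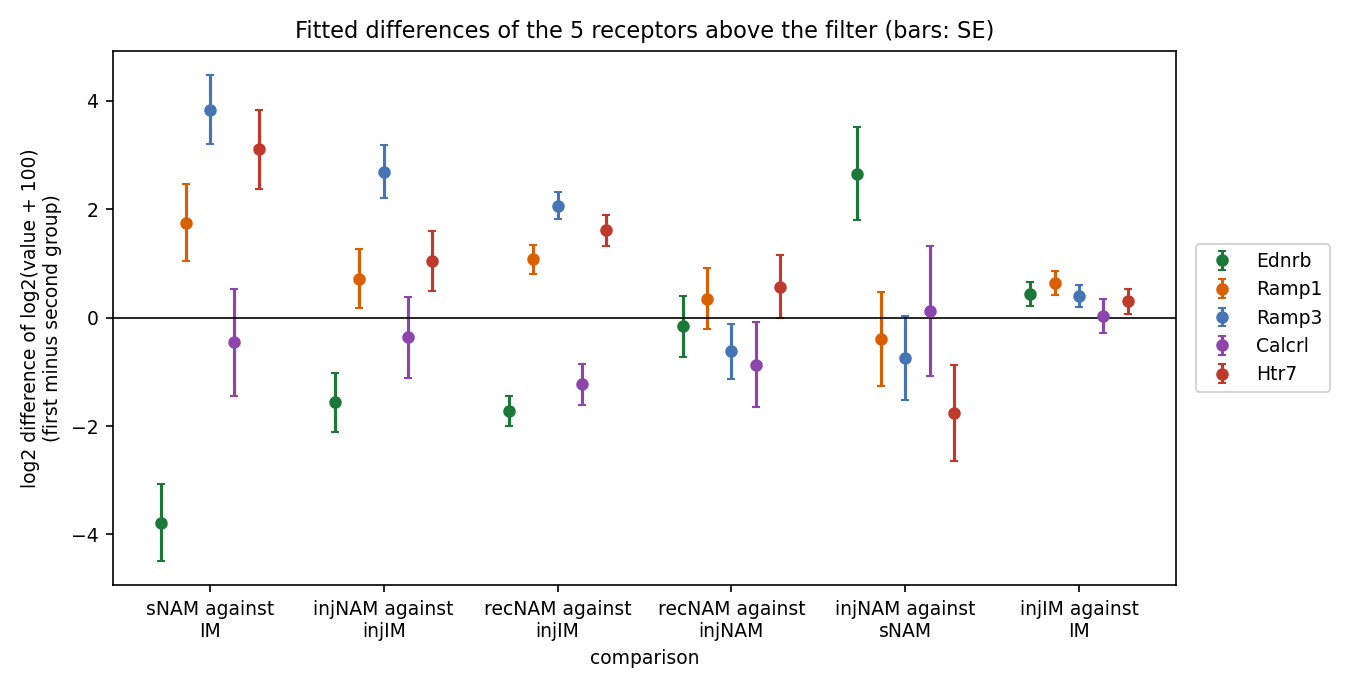
Fitted log2 differences (log2(value + 100) scale) with standard errors for the 5 members that passed the filter, in each of the 6 comparisons, n = 3 libraries per group. Ednrb lies below 0 and Ramp3 above 0 in each comparison of a nerve-associated group with the interstitial group of the same ear.

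Across all genes, the fit called 91 of 8656 genes (1.05%) for sNAM against IM at an adjusted p under 0.05, and 3 of the 5 tested members were among them: Ramp3 and Htr7 higher (0.543% of all genes) and Ednrb lower (0.508%). It called 652 genes (7.53%) for recNAM against injIM, with 4 members among them: Ramp1, Ramp3 and Htr7 higher (3.19% of all genes) and Ednrb lower (4.34%). It called 42 genes (0.485%) for injNAM against injIM, 0.243% in each direction, with Ramp3 among those higher. It called 708 genes (8.18%) for injIM against IM, 4.15% higher and 4.03% lower, with no member among them. For injNAM against sNAM and recNAM against injNAM, limma called 0 genes (0%), with 586 and 619 at an unadjusted p under 0.05, and no member. Since the members were chosen with these contrasts known, their counts say nothing beyond the values above.

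Counted by library, 9.57% of the tested genes were higher in every sNAM library than in every IM library, as were Ramp1, Ramp3 and Htr7, and 18.4% were lower in every one, as was Ednrb. The shares for recNAM against injIM were 11.4% higher, as were Ramp3 and Htr7, and 12.5% lower, as was Ednrb. The shares for injNAM against injIM were 8.92% higher, as was Ramp3, and 12% lower, as was Ednrb. For injIM against IM, 13.5% of genes were higher in every library, as was Ramp1, and 11.4% were lower. No tested member was higher or lower in every library for injNAM against sNAM, where 7.35% of genes were higher and 4.69% lower, or for recNAM against injNAM, where 7.29% were higher and 6.4% lower. Member calls for sNAM against IM depended on single libraries: 0 members were called without sNAM replicate 1, 1 without sNAM replicate 2 or replicate 3, and 2 without IM replicate 2 or replicate 3. For injNAM against injIM, 0 were called without injNAM replicate 1 or replicate 3, and for recNAM against injIM between 3 and 5 were called with any one library left out. For injIM against IM, 1 member was called without injIM replicate 2 and 0 without any other library. The 2 comparisons with injIM share its libraries.

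Genes of the peptides that these receptors bind ranged in the sorted cells between no read in any library and high values in single libraries. Vip, Adcyap1, which encodes PACAP, and Edn2 were at 0 in all 15 libraries. The substance P gene Tac1 was at 19.5 normalized counts in recNAM replicate 2 and at 0 elsewhere, and Edn3 was at 18.7 in recNAM replicate 2, 11 in IM replicate 1 and 0 elsewhere. Adm, which encodes adrenomedullin, reached at most 79.6 normalized counts. Edn1, the endothelin made by endothelium and other cells, had 104, 949 and 7.4 normalized counts in sNAM and 16.1 to 46.4 in IM, a spread among sNAM libraries that covered the IM values. The CGRP gene Calca had 31.9, 0 and 0 in recNAM, 499.9, 0 and 163.6 in injNAM, 0, 1595 and 455.2 in sNAM, at most 6.07 in injIM, and 7.78 to 27.9 in IM. Calca was high in 4 of the 9 nerve-associated libraries and at 0 in 4, and it did not pass the test for sNAM against IM (fitted difference 1.94 ± 0.72). Its close paralog Calcb reached 429 in sNAM and 322 in recNAM, and reads of the pair may have been divided between them by the counting, so both are uncertain.

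The other receptors for these ligands were near 0 in most libraries. Ednra, the type A endothelin receptor, was at 0 in all sNAM libraries, and it reached 280 normalized counts in injNAM replicate 1 and 68.5 in recNAM replicate 1, the other libraries of those groups being at 0; it was at most 28.1 in injIM and 12.7 in IM. The other VIP and PACAP receptors, Vipr2 and Adcyap1r1, reached at most 20.2 and 19, and the calcitonin receptor gene Calcr at most 4.56. Ednrb was thus the endothelin receptor gene with reads in 14 of 15 libraries.

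The wider signalling lists, of 246 genes in 10 lists that were put together with earlier results of these data known, held 71 genes that passed the filter. Because of that choice, a share of list genes called above the share of all genes does not measure enrichment of a pathway. Of 43 neuropeptide receptor genes other than the members only Crcp, which encodes a small protein that aids CGRP receptor signalling, passed, and of 69 receptors for amines, acetylcholine, GABA and glutamate only 2 passed. Purine receptors were the receptor list with the most genes tested, 10 of 19. In the lists of signalling steps, 21 of 33 Gs and cyclic AMP genes, 14 of 21 Gq, Gi and calcium genes, 4 of 7 receptor kinases and arrestins, and 12 of 12 cyclic AMP-responsive genes passed.

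In sNAM against IM, 2 of the 71 genes (2.82%, against 1.05% of all genes) were called by limma with Benjamini-Hochberg adjustment. P2ry10, a receptor for lysophospholipids despite its name, rose to 3838 ± 2345 normalized counts in sNAM, against 104 ± 45 in IM (fitted difference 4.13, adjusted p = 0.0314). Adcy3, an adenylyl cyclase that makes cyclic AMP, fell to 38.3 ± 64.6 in sNAM, against 1157 ± 164 in IM (fitted difference -3.27, adjusted p = 0.0174). Neither was called without sNAM replicate 1 (adjusted p = 0.24 for P2ry10 and 0.199 for Adcy3) or without sNAM replicate 3 (0.142 and 0.0899). The median difference of the 71 genes was -0.12, and that of all tested genes was -0.26.

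In recNAM against injIM, 24 of the 71 genes (33.8%, against 7.53% of all genes) were called, 11 higher and 13 lower, with a median of 0.07 against -0.02 over all genes. Genes of the Gs pathway were called in both directions, 5 higher and 3 lower of 21. Crem, a cyclic AMP-responsive regulator of transcription, rose to 11273 ± 2487 in recNAM, against 4030 ± 273 in injIM (fitted difference 1.44, limma adjusted p = 1.52e-05). Pde4d, which breaks down cyclic AMP, rose with a difference of 1.13 (adjusted p = 0.00532, 0.0954 without recNAM replicate 1), and Adcy3 and the transcription factor gene Atf1 fell, with differences of -1.23 (adjusted p = 0.00313) and -1.11 (adjusted p = 0.00411).

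Receptor genes were also called in that comparison. Hrh1, the histamine H1 receptor, fell with a difference of -1.08 (adjusted p = 0.0196), a call lost when any of 4 libraries was left out, with adjusted p = 0.0558 to 0.12. Of 10 purine receptor genes, P2ry10 rose (1.65, adjusted p = 0.00402) and P2rx7, a receptor for ATP, fell (-1.17, adjusted p = 0.00561), calls lost without recNAM replicate 1 (0.0875 for P2ry10 and 0.078 for P2rx7). P2ry2 and P2ry12 also fell (-0.79 and -0.78, adjusted p = 0.00929 and 0.0366), calls lost when any of 3 libraries for P2ry2 or any of 4 for P2ry12 was left out. Pam, the enzyme that amidates neuropeptides, fell to 83.5 ± 33.7 in recNAM, against 322 ± 29.7 in injIM (adjusted p = 0.00219), and Itpr1, a calcium channel of internal stores, rose with a difference of 1.26 (adjusted p = 0.00327).

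In injIM against IM, 19 of the 71 genes (26.8%, against 8.18% of all genes) were called, 5 higher and 14 lower, with a median of -0.17 against 0.03 over all genes. Of 12 cyclic AMP-responsive genes, 2 rose and 5 fell. Thbs1 rose to 87346 ± 7666 normalized counts in injIM, against 23429 ± 24454 in IM (fitted difference 2.41, limma adjusted p = 0.00814). That call was lost without injIM replicate 1 (0.0673) or injIM replicate 2 (0.0694). Nr4a1, an immediate-early nuclear receptor, fell to 4808 ± 891 in injIM, against 15974 ± 2729 in IM (fitted difference -1.72, limma adjusted p = 3.71e-06). Areg, which encodes the growth factor amphiregulin, fell to 881 ± 148 in injIM, against 3601 ± 538 in IM (adjusted p = 0.000166), and Il10 fell with a difference of -1.08 (adjusted p = 0.000895). These genes respond to many signals besides cyclic AMP, and their change does not say which receptor was active.

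Other steps of signalling changed in both directions with the punch. P2ry6, a receptor for UDP, fell to 2934 ± 191 in injIM, against 5503 ± 378 in IM (limma adjusted p = 4.18e-05), and Pde4b fell with a difference of -0.73 (adjusted p = 4.72e-05). Hrh1 fell to 172 ± 69.6 in injIM, against 472 ± 132 in IM (adjusted p = 0.00469). Nfatc1, a calcium-regulated transcription factor, rose to 5033 ± 2132 in injIM, against 1267 ± 243 in IM (adjusted p = 0.000144), and Grk3, a kinase that desensitizes receptors, rose to 937 ± 76.1, against 310.4 ± 44.5 in IM (adjusted p = 5.84e-05).

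How many of these genes were called depended on the test. With edgeR's quasi-likelihood test on the recovered reads, 0 of the 71 genes were called for injIM against IM and 1 for recNAM against injIM, and with DESeq2 5 and 3. The call of Crem for recNAM against injIM was made under all 13 alternatives. No pathway gene was called for injNAM against sNAM, injNAM against injIM or recNAM against injNAM by the limma fit, with 3, 10 and 8 genes at an unadjusted p under 0.05.

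**Figure D4:**
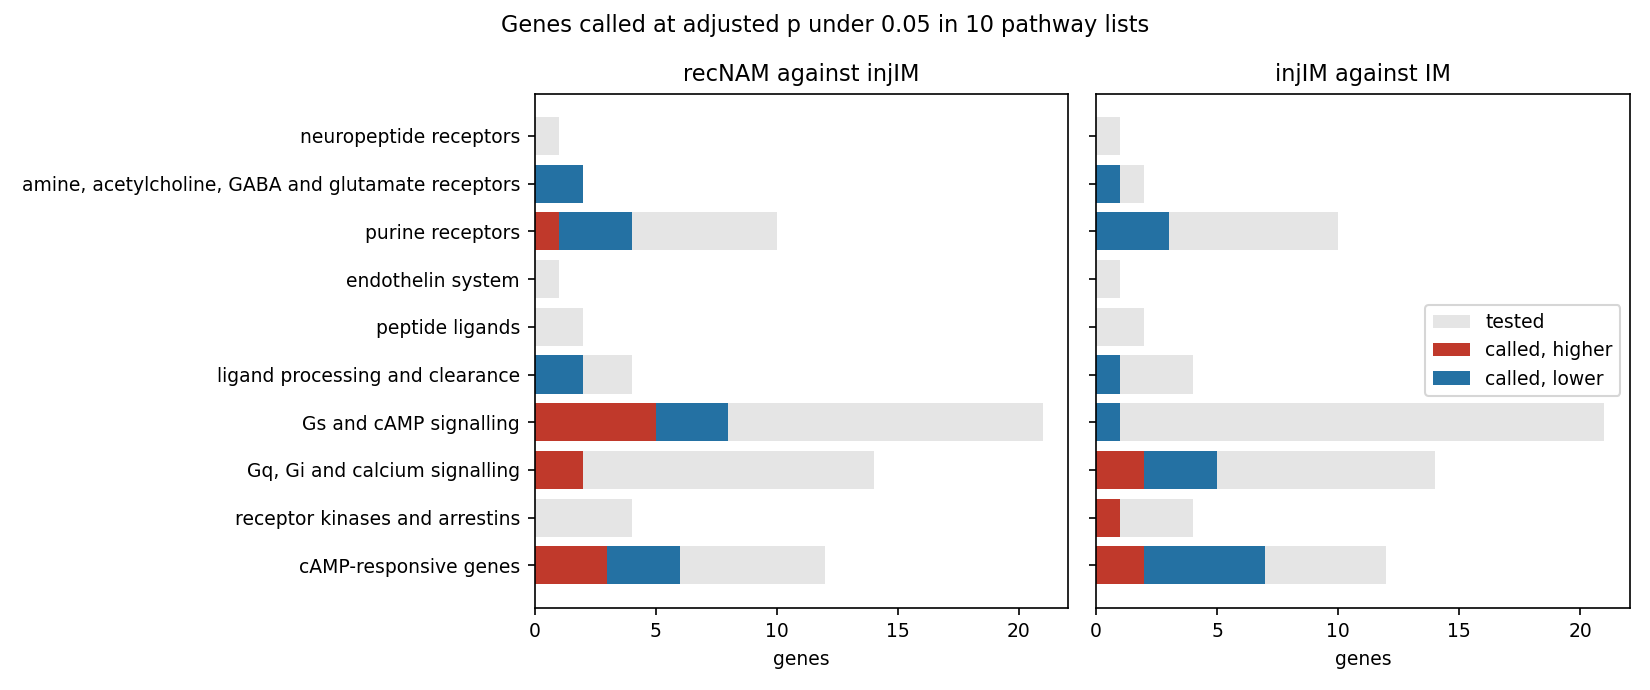
Number of genes (horizontal axis) in each of the 10 signalling lists that were tested (grey) and called by limma at an adjusted p under 0.05 as higher or lower in the first-named group, for recNAM against injIM (left) and injIM against IM (right). Of 12 cyclic AMP-responsive genes, 3 were higher and 3 lower in recNAM, and 2 were higher and 5 lower in injIM.

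Macrophage markers were high in every group. The 10 macrophage markers, among them Csf1r, Adgre1 and Fcgr1, were all above 0 in every library and summed to 20490 to 23960 CPM in recNAM, 17770 to 22570 in injNAM, 15500 to 18480 in sNAM, 19370 to 22050 in injIM and 20760 to 22800 in IM. Neuron markers summed to at most 18.9 CPM in any library and lymphatic endothelial markers to at most 7.1. Mast cell markers summed to 186 to 255 CPM in recNAM, 15.4 to 176 in injNAM, 0.161 to 1856 in sNAM, 244 to 265 in injIM and 528 to 682 in IM. T cell and ILC markers summed to 366 to 503 CPM in recNAM, 346 to 619 in injNAM, 481 to 667 in sNAM, 177 to 234 in injIM and 63.3 to 100.5 in IM. The T cell and ILC sum was higher in every nerve-associated library than in any interstitial one, as was Ramp3, but without Il7r it was 8.63 to 10.6 CPM in recNAM, 12.7 to 345 in injNAM, 3.37 to 319 in sNAM, 3.09 to 6.52 in injIM and 4.66 to 11.7 in IM. The part of these transcripts in the receptor values was not tested.

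**Figure D5:**
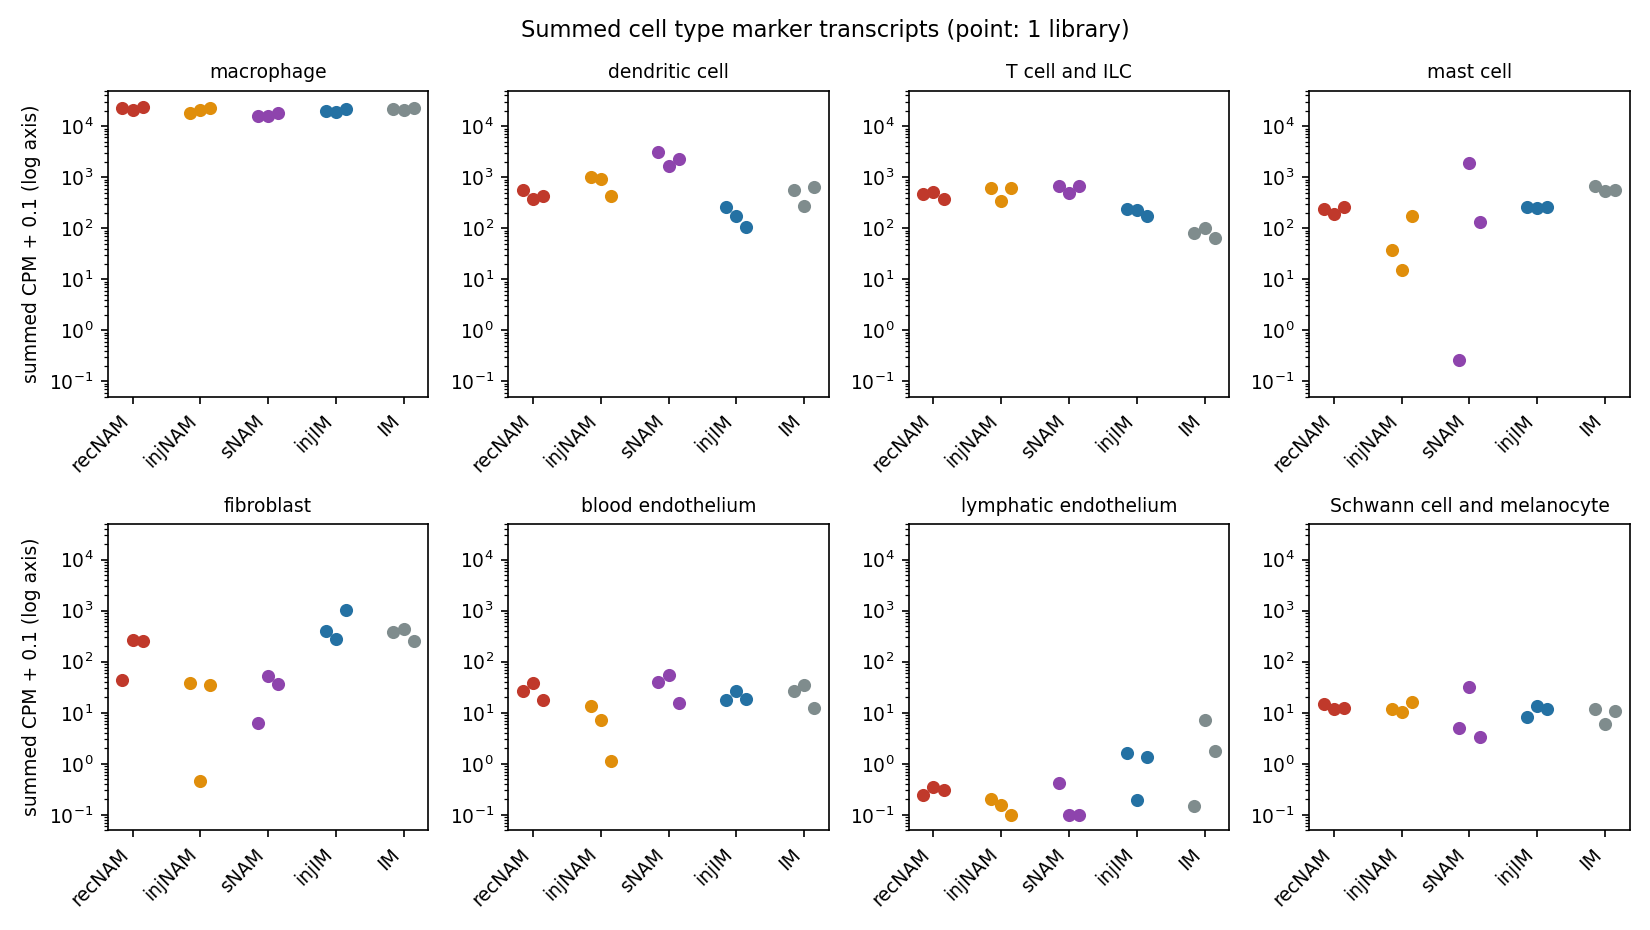
Summed CPM (log axis, 0.1 added) of 8 of the 12 marker lists in each library of recNAM, injNAM, sNAM, injIM and IM; points are single libraries. Macrophage markers sum to 15500 CPM or more in every library, and dendritic cell markers are highest in sNAM, at 1655 to 3099 CPM.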

How the data were processed

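RNA-seq of 15 libraries was used. The submitters' processing notes name STAR 2.7.2b, bcl2fastq 2.18, cutadapt, DESeq2 1.24.0 and R 3.6.1, with build mm10, and no source used here gives the counter, the annotation or the strand setting. The deposited signal is a normalized read count per gene: the authors scaled each library by 1 factor, and 100% of values came out as whole reads (within 0.01) when set against the smallest value of their library. Amplified reads are not independent molecules. The chi-square per degree of freedom between replicates was at least 32.2, so no 2 libraries were alike within sampling noise.

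The main test was limma-trend (limma 3.58.1, R 4.3.3; robust empirical Bayes, 1 weight per group) on log2(value + 100) for the 8656 genes with a mean of 100 or more, with Benjamini-Hochberg adjustment and calls under 0.05. The log2 scale with 100 added understates the change of low genes. Group weights were 1.67 for recNAM, 0.311 for injNAM, 0.175 for sNAM, 3.21 for injIM and 3.43 for IM, the noisiest groups counting least. edgeR 4.0.16 and DESeq2 1.42.0 were run on recovered reads as alternatives, and the fit was tested on simulated data. The members, lists, test and alternatives were chosen with earlier results of these data known. The 7 members are all described. From the lists, called genes could be named, at most 6 per list and comparison, with the direct partners of the members and the 3 genes most correlated with each member. Some genes of the lists are not reported here by name. Per-kilobase levels used the union of exons in GENCODE M21 (GRCm38). Promoters came from RefSeq, and all 7 members matched.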

Additional observations from a re-analysis of the deposited data

How the results depend on the processing

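The number of genes called differed widely between tests and settings. For sNAM against IM, 91 genes were called by the limma fit, 0 with a pseudocount of 10, 727 with a pooled spread, 332 with edgeR and 922 with DESeq2. For injIM against IM the 708 calls became 315 without a filter on low values, 18 with a pooled spread, 4 with edgeR and 64 with DESeq2. For injNAM against sNAM the 0 calls (586 at an unadjusted p under 0.05) became 4 without a filter, 363 with a pooled spread, 135 with edgeR and 725 with DESeq2. For injNAM against injIM the 42 calls became 102 without a filter, 69 with a pooled spread and 314 with DESeq2. For recNAM against injIM the 652 calls became 362, 22, 9 and 121 without a filter, with a pooled spread, with edgeR and with DESeq2, and for recNAM against injNAM the 0 calls became 12, 2, 6 and 154 in that order. Scaling to the library total gave 718 calls for injIM against IM, of which 450 were higher and 268 lower, against 359 higher and 349 lower with the authors' factors. The cause of these shifts was not tested.

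Leaving out 1 library gave 0 to 108 calls for sNAM against IM (0 without sNAM replicate 1, 9 without sNAM replicate 3, 57 without IM replicate 3), 399 to 827 for injIM against IM (425 and 399 without IM replicates 1 and 3, 428 without injIM replicate 1), 0 to 0 for injNAM against sNAM, 2 to 75 for injNAM against injIM (6 and 2 without injNAM replicates 1 and 3, 74 without injNAM replicate 2, 26, 20 and 75 without injIM replicates 1, 2 and 3), 272 to 898 for recNAM against injIM (272 without recNAM replicate 1, 357 without injIM replicate 1) and 0 to 39 for recNAM against injNAM (39 without injNAM replicate 2, 2 without recNAM replicate 3). Of 24 signalling genes called for recNAM against injIM, 7 were called without recNAM replicate 1 and 12 without injIM replicate 1.

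The replicate block, a term for the replicate number, gave 70 calls for injNAM against injIM and 1211 for recNAM against injIM. It gave 928 for the punch in interstitial macrophages (injIM against IM), 100 for sNAM set against IM, and 0 for the other 2 comparisons. The numbers share no stated source, and for that reason the libraries were not taken as paired. Residuals of 30 same-numbered pairs correlated at -0.021 to 0.388 (median 0.0648), with 9 pairs over 0.1. Those of 60 different-numbered pairs correlated at -0.447 to 0.127 (median -0.037), with 3 pairs over 0.1. Whether libraries of the same number share a mouse cannot be told from the labels. As a hint from the data, all 15 libraries correlated better on average with their own number.

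Of 390 member differences under alternatives, 374 kept their sign and 21 moved by more than 1 SD; the sign changes were in Calcrl, in 4 comparisons, and in Htr7 for recNAM against injNAM. Of 585 checks of signalling gene calls under alternatives, 359 were kept, 226 were lost and 0 were reversed. At this depth Tacr1 had 5 reads in all and Vipr1 no read in 4 libraries, and sNAM replicate 2, the shallowest, had none for Ednrb, Calcrl and Vipr1.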
